A study of Mus musculus with 6 samples.

Results

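The cytochrome P450 genes of the mouse were followed in the renal cortex of diabetic mice that lacked the receptor for the complement fragment C3a, and in diabetic mice that kept it. The set was chosen by name alone. It holds every non-control probe of the array whose gene name is Cyp, a family number, a subfamily letter and a gene number, apart from Cyp27b1 and Cyp24a1. That rule took 133 of 56599 probes, which stand for 99 genes in 15 families, with a few pseudogenes and the antisense RNA Cyp4x1os among them. The scanner software called 86 of the 133 probes well above background on 3 or more of the 6 arrays. Those probes cover 64 genes in 12 families, out of 22744 genes tested over the whole array, and the other 35 genes were not tested.

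Both groups were male C57BL/6 mice with the same treatment. From 8 weeks of age they were fed a diet with 60% of its calories from fat, and after 4 weeks they were given streptozotocin, which destroys pancreatic beta cells, at 60 mg/kg on each of 3 days. They were killed 26 weeks after streptozotocin. There were 3 arrays from C3aR-/- mice and 3 from wild-type (WT) mice, each hybridised with Cy3-labelled RNA. Diabetes is common to both groups, and mice without diabetes were not analysed here. The labels do not give how the C3aR-/- line was made, and they do not say whether each replicate was its own animal, so p-values measure only the spread between these samples.

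P450s are heme enzymes that insert 1 atom of oxygen into their substrates, using electrons passed on by a reductase or, in mitochondria, by ferredoxin. In kidney they are held mostly by the proximal tubule. There the CYP4A and CYP4F enzymes hydroxylate the end of fatty acid chains, the CYP2C and CYP2J enzymes make epoxides of arachidonic acid that act on vessels and salt transport, and several others clear drugs and solvents. In mice many renal P450 genes depend on androgen, on the fatty acid receptor PPAR-alpha or on the aryl hydrocarbon receptor.

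A 60-base probe reads each gene, and the probes themselves set which genes can be told apart. The first 30 bases of 6 of them are shown, because these were the P450 genes whose groups did not overlap. Positions are those of the whole probe on mm9, as the files give them, and whether a probe lies in a coding or untranslated part of its transcript was not determined here.
Cyp1a1, chr9:57551535-57551594, plus strand: gataatttgctagtgtaacaaagaagattc
Cyp2c29, chr19:39403642-39403701, plus strand: gagtttcccaacccagagatgtttgaccct
Cyp2c44, chr19:44079535-44079594, minus strand: ccacacacattttcctattctcacgtaaaa
Cyp2d22, chr15:82201687-82201746, minus strand: ttccctcaaattgataatgtttatacatag
Cyp2j9, chr4:96235281-96235340, minus strand: aaattaaggtgacagagagtgcgtgcaatg
Cyp2t4, chr7:27943506-27943565, plus strand: aacatcaaccttaacccacagtgtactggt

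Also shown are 2 pairs of probes, because each pair is nearly 1 sequence, with the bases at which the pair differs in capitals. The probes of Cyp2c67 and Cyp2c68 differ at 4 of 59 overlapping bases, 2 of them inside the 30 bases shown, so their readings may share signal and are uncertain as separate measurements. A pair of Cyp4f18 probes differs at 3 of 59 bases, with 2 in the stretch shown. Other members were compared in the same way, and among the tested genes no other pair of probes matched at 45 or more bases. Probes were compared with each other and not with transcripts, so signal shared between other related genes was not tested.
Cyp2c67, chr19:39683429-39683488, minus strand: acAcagtcccagAaattccatctatattcc
Cyp2c68, chr19:39763420-39763479, minus strand: acCcagtcccagGaattccatctatattcc
Cyp4f18, chr8:74512382-74512441, minus strand: acctgtgcctttAcaggaataaaattttcG
Cyp4f18, chr8:74512381-74512440, minus strand: acctgtgcctttCcaggaataaaattttcT

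Levels below are log2 of the processed signal minus the array's 75th percentile, so a level of 0 equals that percentile and negative levels are dimmer. Levels of different probes are not on 1 scale and are not set against each other. Differences are C3aR-/- minus WT on the log2 scale, with the standard error from limma. C3ar1, the targeted gene, read -4.10, -4.95 and -4.69 in C3aR-/- replicates 1 to 3, against -2.96, -3.86 and -3.62 in WT replicates 1 to 3. The groups did not overlap, and the difference was -1.10 ± 0.30 (limma, adjusted p = 0.931). Its probe was well above background on 2 C3aR-/- arrays and 3 WT arrays, and its place relative to the deletion is not known here. All 18 proximal tubule markers and all 5 podocyte markers looked for were among the genes tested. So were all 4 of thick ascending limb and all 9 of distal tubule and collecting duct. Detection alone therefore cannot tell cortex from other parts of the kidney.

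What the cortex expressed differed strongly between families. In family 2, the largest, 37 of 50 genes were tested, and in family 4 15 of 22. In family 3, which holds the main drug-clearing enzymes of liver, 1 of 8 was tested, namely Cyp3a13. Families 8, 11 and 19 had no tested gene. Among the genes whose probes were not well above background on any array were Cyp7a1 and Cyp8b1, the liver enzymes of bile acid synthesis, Cyp1a2 and Cyp3a11, drug-clearing enzymes of liver, and Cyp11a1, Cyp11b1 and Cyp11b2, the mitochondrial steroid enzymes of adrenal cortex. Of the 35 untested genes, 30 were dim on all arrays and 5 were well above background on 1 array, among them Cyp19a1, the aromatase. Of the 64 tested genes, 59 were well above background on all 6 arrays, and no tested P450 gene was dim on every array of a group.

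**Figure D1:**
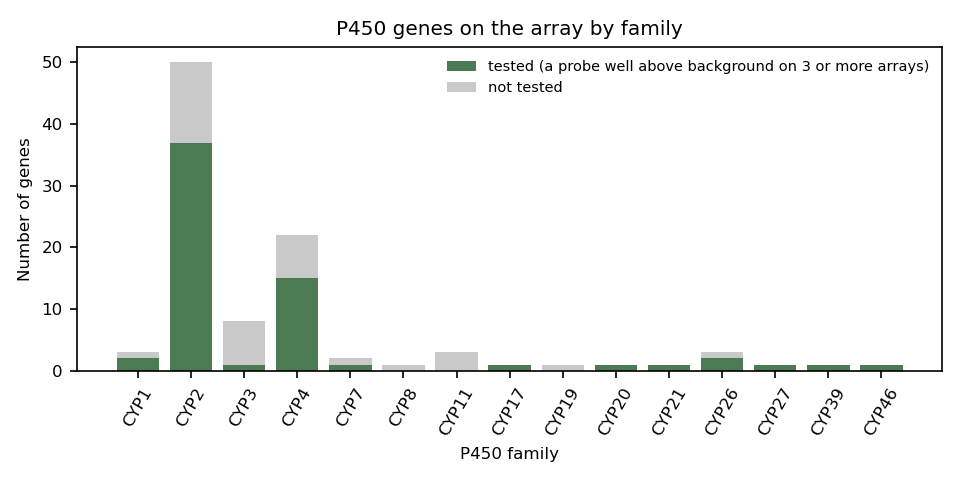
Number of P450 genes on the array by family (horizontal axis), with tested genes in green and untested genes in grey. Family 2 has 50 genes, of which 37 were tested, and family 3 has 8, of which 1 was tested.

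No P450 gene passed the test between the genotypes. With limma and Benjamini-Hochberg adjustment over all 22744 genes, 0 of 64 P450 genes had an adjusted p under 0.05, where 0.0% of all genes did, and their adjusted p ran between 0.931 and 0.997. At an unadjusted p under 0.05, 4 of 64 (6.25%) passed, all higher in C3aR-/-, where 4.88% of all genes passed, 2.2% higher and 2.68% lower. The groups did not overlap in 6 of 64 genes (9.38%), all higher in C3aR-/-, where 9.84% of all genes had no overlap, 5.65% higher and 4.19% lower. Counted in both directions together, both shares lie near those of all genes. A difference in RNA level in whole cortex cannot tell fewer cells of a type from less RNA per cell. Leaving out WT replicate 2 raised the count of 4 to 11, and leaving out WT replicate 3 took it to 0. It became 1 when C3aR-/- replicate 1 was dropped and 2 when C3aR-/- replicate 2 was dropped. A block for the slide row gave 11.

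The difference was above 0 in 45 of 64 P450 genes (70.3%), where 56.6% of all genes lay above 0, and the median difference was 0.17 for the P450 genes and 0.026 for all genes. At least 1.5-fold higher in C3aR-/- were 6 P450 genes (9.38%), where 1.37% of all genes were, and at least 1.5-fold lower were 2 (3.12%), where 3.08% of all genes were. The count of 6 was 1 without WT replicate 1 (Cyp26b1), 2 without C3aR-/- replicate 2 and between 6 and 10 without the others, and with normexp background correction it was 2 (Cyp2e1 and Cyp26b1). The count of 2 ran between 1 and 5. Leaving out 1 array turned the sign of 27 of 64 differences at least once, and it turned or moved by over 1.5 times 58 of them. The 6 others were Cyp1a1, Cyp2c29, Cyp2d22, Cyp2j9, Cyp2r1 and Cyp2t4. The median depended on single arrays too. It was 0.03 when WT replicate 1 was left out, 0.26 when WT replicate 2 was, and between 0.13 and 0.20 for the other 4 arrays. It was 0.07 among the 4 arrays of slide row 1 and 0.32 between the 2 arrays of row 2, which are C3aR-/- replicate 3 and WT replicate 1.

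**Figure D2:**
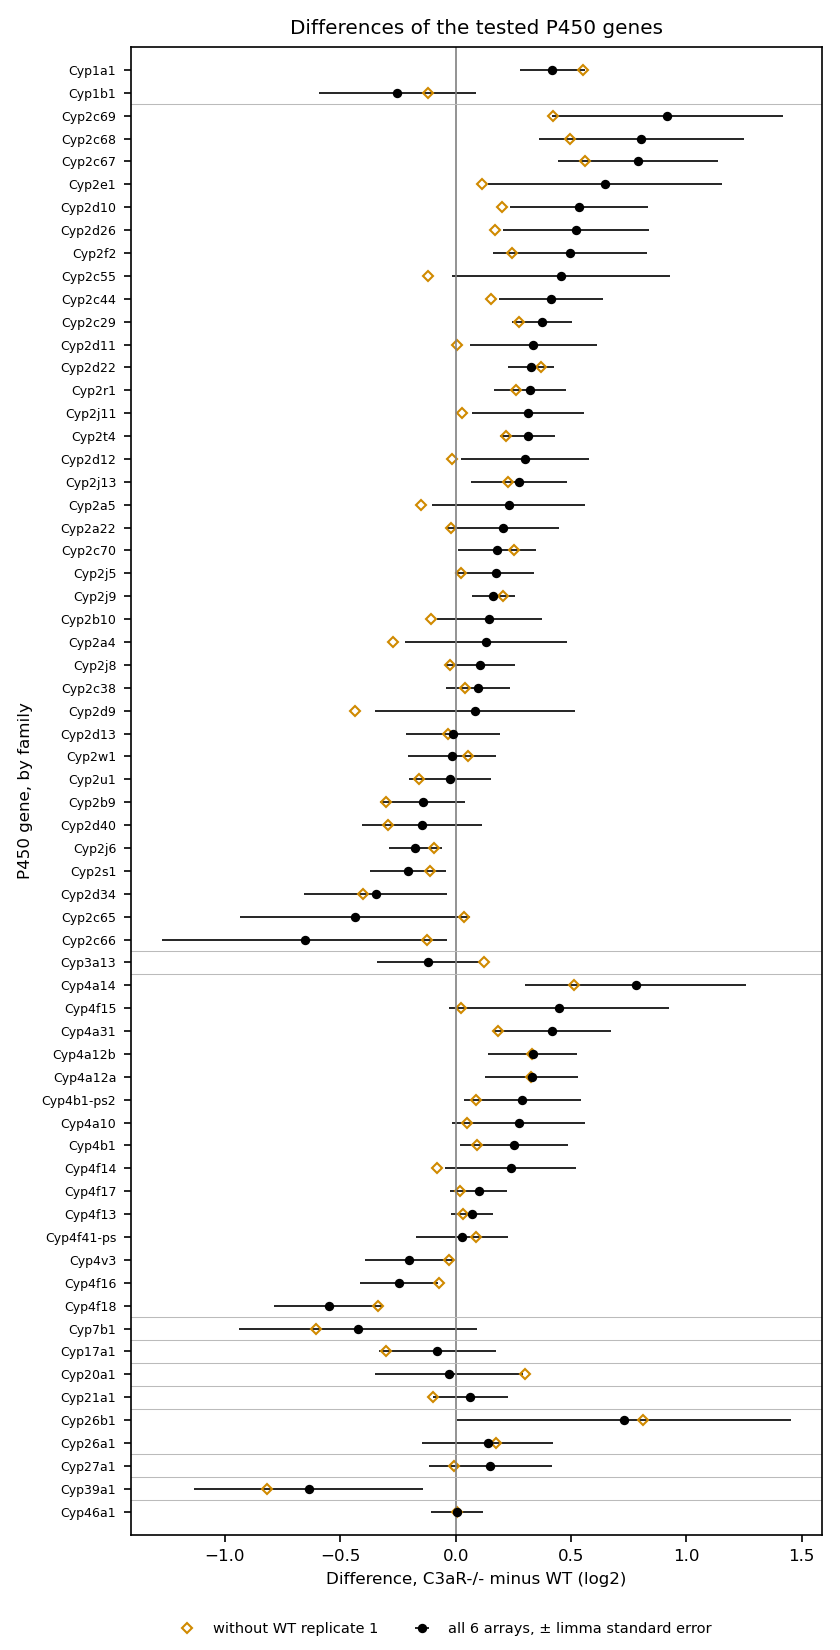
Difference of each tested P450 gene in log2 units (horizontal axis), grouped by family (vertical axis), with all 6 arrays (filled circles, bars of 1 limma standard error) and without WT replicate 1 (open diamonds). Most circles lie right of 0, as 45 of 64 do, and many diamonds lie nearer to 0 than their circles.

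The drug- and toxin-handling members come first. Cyp1a1, which oxidises polycyclic hydrocarbons and is the classical target of the aryl hydrocarbon receptor, read -2.68, -2.80 and -2.63 in the C3aR-/- arrays, against -2.86, -3.30 and -3.21 in the WT arrays. All C3aR-/- arrays lay above all WT arrays. The means were -2.70 ± 0.09 in C3aR-/- and -3.12 ± 0.23 in WT (SD, n = 3 each), a difference of 0.42 ± 0.14, or 1.34-fold (limma, unadjusted p = 0.0236, adjusted p = 0.931). It was 0.55 without WT replicate 1 and 0.33 without WT replicate 2, where the unadjusted p was 0.0789. Within slide row 1 it was 0.52 and within row 2 0.23, and with normexp correction it was 0.28 (limma, unadjusted p = 0.0168). Cyp1b1, another of the receptor's targets, differed by -0.25 ± 0.34, and by 0.01 without C3aR-/- replicate 2. Of 4 tested targets of that receptor outside the P450s, 4 lay above 0, with a median difference of 0.13. In Tiparp, which dampens the receptor, the groups did not overlap (0.21 ± 0.12). Ahr itself differed by -0.03 ± 0.17, and by 0.13 without WT replicate 1.

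Cyp2d22, often taken as the mouse counterpart of the human drug-metabolising CYP2D6, had the smallest p of the set. It read -1.85, -1.92 and -1.77 in C3aR-/- arrays, against -2.09, -2.16 and -2.27 in WT arrays, with no overlap. The difference was 0.33 ± 0.10 (limma, unadjusted p = 0.0165, adjusted p = 0.931). Leaving out each array in turn kept it between 0.28 and 0.37, and it was 0.33 within slide row 1 and 0.32 within row 2. With normexp correction it was lower, at 0.25 (limma, unadjusted p = 0.0154). In the other 8 tested CYP2D genes the groups overlapped. Cyp2d10 (0.53 ± 0.30), Cyp2d26 (0.52 ± 0.32), Cyp2d11 (0.34 ± 0.27) and Cyp2d12 (0.30 ± 0.28) were lowest in WT replicate 1, and without that array they differed by 0.20, 0.17, 0.01 and -0.02. Cyp2d9, a testosterone hydroxylase of male liver and kidney, read -0.89, -0.68 and -0.46 in C3aR-/- arrays, against -1.80, -0.32 and -0.15 in WT arrays. Its difference was 0.08 ± 0.43 with all arrays and -0.44 without WT replicate 1.

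Cyp2e1, which oxidises ethanol, acetone and small solvents, read 6.02, 6.90 and 6.08 in C3aR-/- arrays, against 4.62, 6.54 and 5.90 in WT arrays. The groups overlapped, since WT replicate 2 lay above C3aR-/- replicates 1 and 3. Its difference was 0.65 ± 0.51 with all arrays and 0.11 without WT replicate 1, and a second probe of the gene gave 0.59. Cyp2a4 and Cyp2a5, hydroxylases of testosterone and of coumarin, differed by 0.13 ± 0.35 and 0.23 ± 0.33. Both were lowest in WT replicate 1 and highest in WT replicate 3, and without WT replicate 1 they differed by -0.27 and -0.15. Cyp2b10, a target of the drug receptor CAR, differed by 0.15 ± 0.23, and Cyp2f2, known from the airway, by 0.49 ± 0.33. Without WT replicate 1 these values were -0.11 and 0.24. Cyp3a13, the family 3 gene tested, read -3.10, -2.87 and -2.81 in C3aR-/- arrays, against -2.32, -3.12 and -2.98 in WT arrays, a difference of -0.12 ± 0.22 that became 0.12 without WT replicate 1.

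Cyp2t4, for which no role is given here, read -3.72, -3.82 and -3.82 in C3aR-/- arrays, against -4.29, -3.94 and -4.08 in WT arrays. The groups did not overlap, and the difference was 0.31 ± 0.12 (limma, unadjusted p = 0.0378, adjusted p = 0.931). Without WT replicate 1 it was 0.22, with an unadjusted p of 0.079, and with normexp correction 0.19, with an unadjusted p of 0.0865. Cyp2r1, a vitamin D hydroxylase of the first activating step, differed by 0.32 ± 0.16 and its groups overlapped. Cyp2s1, an enzyme of epithelia, differed by -0.21 ± 0.16, and it was highest in WT replicate 1 and lowest in C3aR-/- replicate 2, without which it was -0.11 and -0.06 in turn. The fatty acid hydroxylase Cyp2u1 differed by -0.02 ± 0.18 with the probe used, the brightest. Its other 2 probes gave 0.25, with all C3aR-/- arrays above all WT arrays, and 0.12, with overlap.

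The CYP2C and CYP2J epoxygenases act on arachidonic acid. Cyp2c44, the main such enzyme of mouse kidney and named Cyp2c23 in RefSeq, read 2.70, 2.62 and 2.72 in C3aR-/- arrays, against 1.75, 2.59 and 2.45 in WT arrays. All C3aR-/- arrays lay above all WT arrays, with WT replicate 2 just below the lowest of them. The means were 2.68 ± 0.05 in C3aR-/- and 2.27 ± 0.45 in WT (SD, n = 3 each), a difference of 0.41 ± 0.22 (limma, unadjusted p = 0.113, adjusted p = 0.931). It was 0.16 without WT replicate 1, 0.13 within slide row 1 and 0.97 within row 2. A second Cyp2c44 probe differed by 0.30, with overlapping groups.

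Cyp2c29, an epoxygenase and drug-metabolising enzyme, read -2.91, -2.90 and -2.89 in C3aR-/- arrays, against -3.48, -3.05 and -3.29 in WT arrays. The C3aR-/- arrays lay close together and above all WT arrays. The difference was 0.37 ± 0.13 (limma, unadjusted p = 0.0259, adjusted p = 0.931), and without WT replicate 1 it was 0.27, with an unadjusted p of 0.0552. With normexp correction it was 0.23, with an unadjusted p of 0.0515. Cyp2j9 read 1.19, 1.21 and 1.22 in C3aR-/- arrays, against 1.13, 0.98 and 1.02 in WT arrays, a difference of 0.16 ± 0.09 without overlap. Its second probe differed by 0.35, with overlap. Cyp2j5, an androgen-dependent epoxygenase of proximal tubule, differed by 0.17 ± 0.17 and Cyp2j13 by 0.28 ± 0.21. The first was 0.02 without WT replicate 1, and the second 0.13 without C3aR-/- replicate 2. Of the 6 CYP2J genes tested, 5 lay above 0, and Cyp2j6 was the exception, at -0.17 ± 0.12 with the probe used and 0.06 with the other.

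The neighbours on chromosome 19, Cyp2c67, Cyp2c68 and Cyp2c69, had the largest positive differences of the set with the processed signals of all 6 arrays. With normexp correction they were 0.49, 0.43 and 0.46. These lay under Cyp26b1 (0.69), Cyp2e1 (0.65), Cyp4a14 (0.54) and Cyp2d26 (0.53), and narrowly under Cyp2d10 (0.4916, against 0.4891 for Cyp2c67). Without WT replicate 1 Cyp26b1 was the largest. Cyp2c67 read -2.87, -2.35 and -3.45 in C3aR-/- arrays, against -4.14, -3.16 and -3.74 in WT arrays. Cyp2c68 read -2.85, -2.27 and -3.81 in C3aR-/- arrays, against -4.40, -3.33 and -3.62 in WT arrays. Cyp2c69 read -2.83, -2.27 and -3.54 in C3aR-/- arrays, against -4.78, -3.13 and -3.46 in WT arrays. In all of them C3aR-/- replicate 2 was the highest array and WT replicate 1 the lowest, and the groups overlapped through C3aR-/- replicate 3. The differences were 0.79 ± 0.35, 0.80 ± 0.44 and 0.92 ± 0.50, or 1.73-fold, 1.75-fold and 1.89-fold (limma, unadjusted p of 0.0597, 0.117 and 0.114, adjusted p = 0.931 for each). With the slide row as a block the unadjusted p were 0.011, 0.00685 and 0.00547. Without WT replicate 1 the differences were 0.56, 0.49 and 0.42.

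The genes Cyp2c65 and Cyp2c66, which lie in the same cluster and are known from intestine, ran the other way on the same 2 arrays. Cyp2c65 read -1.78, -2.76 and -1.42 in C3aR-/- arrays, against -0.60, -1.95 and -2.09 in WT arrays. Cyp2c66 read -2.63, -3.95 and -2.11 in C3aR-/- arrays, against -1.17, -2.60 and -2.95 in WT arrays. For both, WT replicate 1 was the highest array and C3aR-/- replicate 2 the lowest. Their differences were -0.44 ± 0.50 and -0.65 ± 0.62, the groups overlapped, and without both of those arrays the differences were 0.42 and 0.41.

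The highest and lowest arrays of Cyp2c67, Cyp2c68 and Cyp2c69 were also those of other P450 genes, such as Cyp2e1, Cyp2j5 and Cyp4b1. Whether promoter sequence bears on this was not tested. The 250 bases before the starts of Cyp2c67, Cyp2c68 and Cyp2c69 are shown because these 3 neighbours had the same highest and lowest array. They are from RefSeq (GRCm38.p6), 5′ to 3′ on the coding strand, with CAAAGTCCA in capitals, a form of the binding sequence of the nuclear receptor HNF4-alpha. Its first base lies at -125, -77 and -75, counted back from the start of each gene in that order. Windows of 250 bases before to 50 after the start were aligned in pairs, and identity was taken over the aligned bases only. These did not fill the window in any pair, and the pairs with Cyp2c67 had fewer of them than the other pair. Over those bases Cyp2c67 and Cyp2c68 were 91.6% identical, Cyp2c67 and Cyp2c69 92.8%, and Cyp2c68 and Cyp2c69 93.6%.
Cyp2c67, chr19:39649043-39649292, minus strand: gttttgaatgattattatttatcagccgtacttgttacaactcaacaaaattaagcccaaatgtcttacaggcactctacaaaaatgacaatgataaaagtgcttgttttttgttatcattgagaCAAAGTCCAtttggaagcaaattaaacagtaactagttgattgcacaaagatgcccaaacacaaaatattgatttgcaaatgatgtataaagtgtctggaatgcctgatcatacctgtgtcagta
Cyp2c68, chr19:39741102-39741351, minus strand: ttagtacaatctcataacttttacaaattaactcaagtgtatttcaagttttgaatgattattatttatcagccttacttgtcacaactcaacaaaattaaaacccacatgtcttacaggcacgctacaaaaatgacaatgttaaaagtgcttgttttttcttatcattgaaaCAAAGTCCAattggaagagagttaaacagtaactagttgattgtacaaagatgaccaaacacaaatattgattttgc
Cyp2c69, chr19:39886770-39887019, minus strand: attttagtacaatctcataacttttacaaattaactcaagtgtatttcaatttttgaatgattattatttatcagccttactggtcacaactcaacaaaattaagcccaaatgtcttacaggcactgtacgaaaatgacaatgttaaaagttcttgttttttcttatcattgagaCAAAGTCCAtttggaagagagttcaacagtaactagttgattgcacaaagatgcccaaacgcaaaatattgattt

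This motif was picked after the matches of 10 motifs had been seen, so its share is a description. The 10 were searched on both strands of the 250 bases before the start, and some lie inside others. Shares of P450s are over genes, each counted if any of its promoters matched. Shares of all are over promoters, so the measures are not quite alike. CAAAGTCCA was in 0.384% of 32851 RefSeq promoters and in 10 of the 73 P450 genes with a promoter in the table (13.7%). Of those 10, 5 were tested, namely Cyp2c67, Cyp2c68, Cyp2c69, Cyp2c65 and Cyp2c70, so the match is also before the start of Cyp2c65, whose arrays ran the other way. TATAAA was in 37.0% of the P450 genes and 12.4% of all promoters, and TATAAAA in 12.3% and 4.98%. AGGTCA, the site of many nuclear receptors, was in 24.7% and 14.0%, and its direct repeat, DR1, in 0.0% and 0.0335%. TNGCGTG, the core bound by the aryl hydrocarbon receptor, was in 1.37% and 4.1%, and GCGTG in 19.2% and 28.2%. CCAAT was in 39.7% and 33.8%. The HNF1 motif was in 0.0% and 0.00913%, and a shorter form of it in 0.0% and 0.134%.

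**Figure D3:**
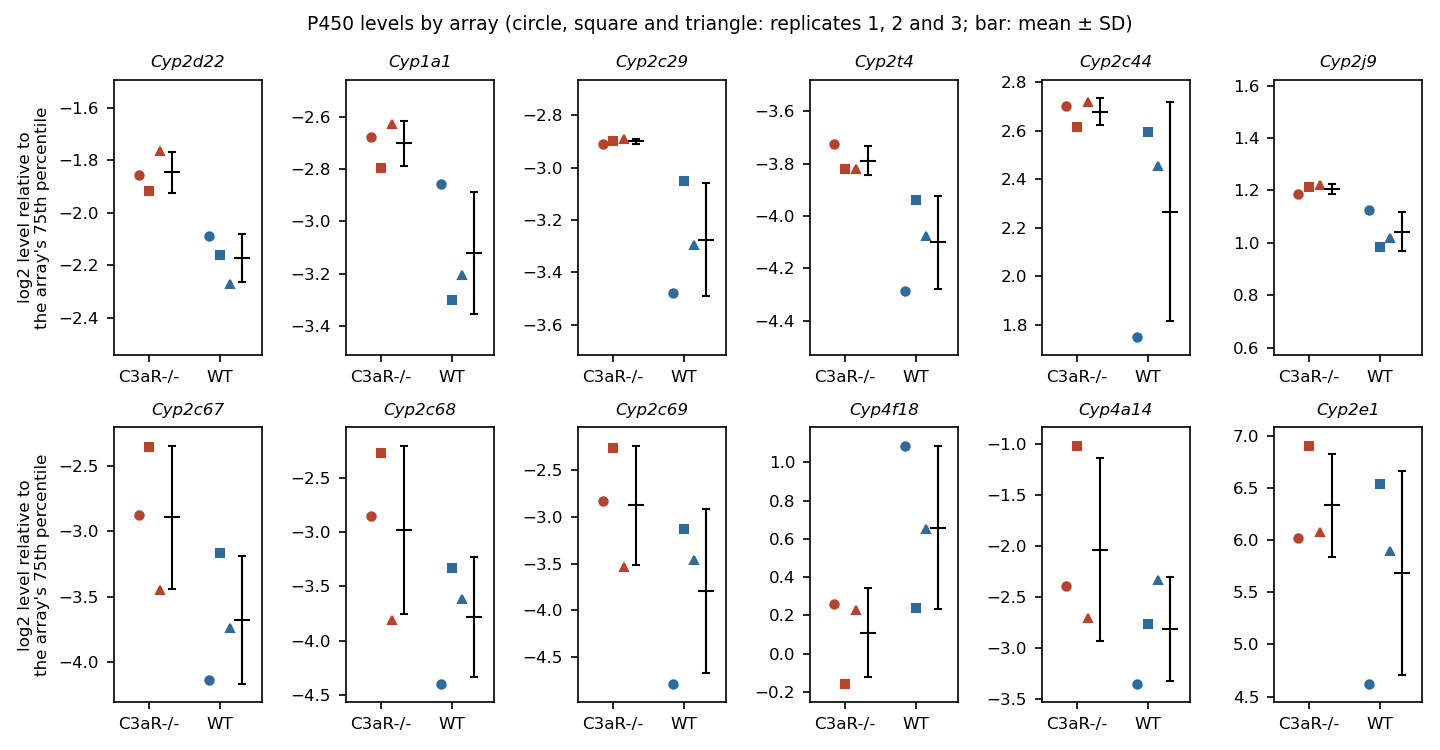
Log2 level relative to the array's 75th percentile (vertical axes, drawn separately for each gene) of 12 P450 genes in C3aR-/- arrays (red, left) and WT arrays (blue, right), with means ± SD as bars. The groups do not overlap in the 6 genes of the upper row, and in 5 genes of the lower row WT replicate 1 (blue circle) is the lowest array, Cyp4f18 being the exception, where it is the highest.

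The fatty acid hydroxylases of family 4 follow. All 5 tested CYP4A genes had positive differences. Cyp4a14, an inducible target of PPAR-alpha, read -2.39, -1.02 and -2.71 in C3aR-/- arrays, against -3.36, -2.76 and -2.34 in WT arrays. C3aR-/- replicate 2 stood above the other 5 arrays, which overlapped. The difference was 0.78 ± 0.48 and was 0.27 without C3aR-/- replicate 2. Cyp4a10, a target of the same receptor, differed by 0.27 ± 0.29, and Cyp4a31 by 0.42 ± 0.26. Without WT replicate 1 these were 0.05 and 0.18, and without C3aR-/- replicate 2 they were 0.01 and 0.25. Cyp4a12a and Cyp4a12b, the androgen-dependent enzymes that make the vasoconstrictor HETE from arachidonic acid, differed by 0.33 ± 0.20 and 0.33 ± 0.19. They were lowest in WT replicate 3, and without it the differences were 0.14 and 0.15. Cyp4b1, a fatty acid hydroxylase of kidney and lung, differed by 0.25 ± 0.23, and by 0.09 without WT replicate 1.

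Cyp4f18 had the smallest p among the P450 genes below 0. The enzyme hydroxylates leukotriene B4 in mouse neutrophils. It read 0.26, -0.16 and 0.23 in C3aR-/- arrays, against 1.09, 0.24 and 0.65 in WT arrays. Only WT replicate 2 fell inside the range of the C3aR-/- arrays. The difference was -0.55 ± 0.24 (limma, unadjusted p = 0.0566, adjusted p = 0.931), and it was -0.34 without WT replicate 1. The 3 probes gave values between -0.62 and -0.48, but they include the pair shown above that is nearly 1 sequence. Cyp4f16 (-0.25 ± 0.17) and Cyp4v3 (-0.20 ± 0.19) were also highest in WT replicate 1. The other 5 of 7 tested CYP4F genes lay above 0, between 0.03 and 0.45.

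Among the members that act on sterols, steroids and retinoic acid, Cyp7b1, Cyp39a1 and Cyp26b1 had wide spreads. Cyp7b1, which hydroxylates oxysterols, read 1.74, 0.34 and 2.09 in C3aR-/- arrays, against 1.45, 1.46 and 2.53 in WT arrays, a difference of -0.42 ± 0.51 that was 0.10 without C3aR-/- replicate 2. Cyp39a1, an oxysterol hydroxylase, read -0.92, 1.02 and 0.45 in C3aR-/- arrays, against 0.46, 0.76 and 1.25 in WT arrays, a difference of -0.64 ± 0.50. C3aR-/- replicate 1 set most of that value, which was -0.09 without it. Cyp27a1, the mitochondrial sterol hydroxylase, differed by 0.15 ± 0.27 (-0.01 without WT replicate 1), and Cyp46a1, the cholesterol hydroxylase known from neurons, by 0.01 ± 0.11. The steroid enzymes Cyp17a1 and Cyp21a1 differed by -0.08 ± 0.25 and 0.06 ± 0.16. Cyp26b1, which degrades retinoic acid, read 2.06, 3.41 and 1.23 in C3aR-/- arrays, against 1.66, 0.31 and 2.53 in WT arrays, so that each group spanned most of the other's range. Its difference was 0.73 ± 0.72, but 0.13 when WT replicate 2 was dropped and 0.14 when C3aR-/- replicate 2 was. Cyp26a1 differed by 0.14 ± 0.28. Cyp20a1, whose substrate is not known, differed by -0.03 ± 0.32.

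**Figure D4:**
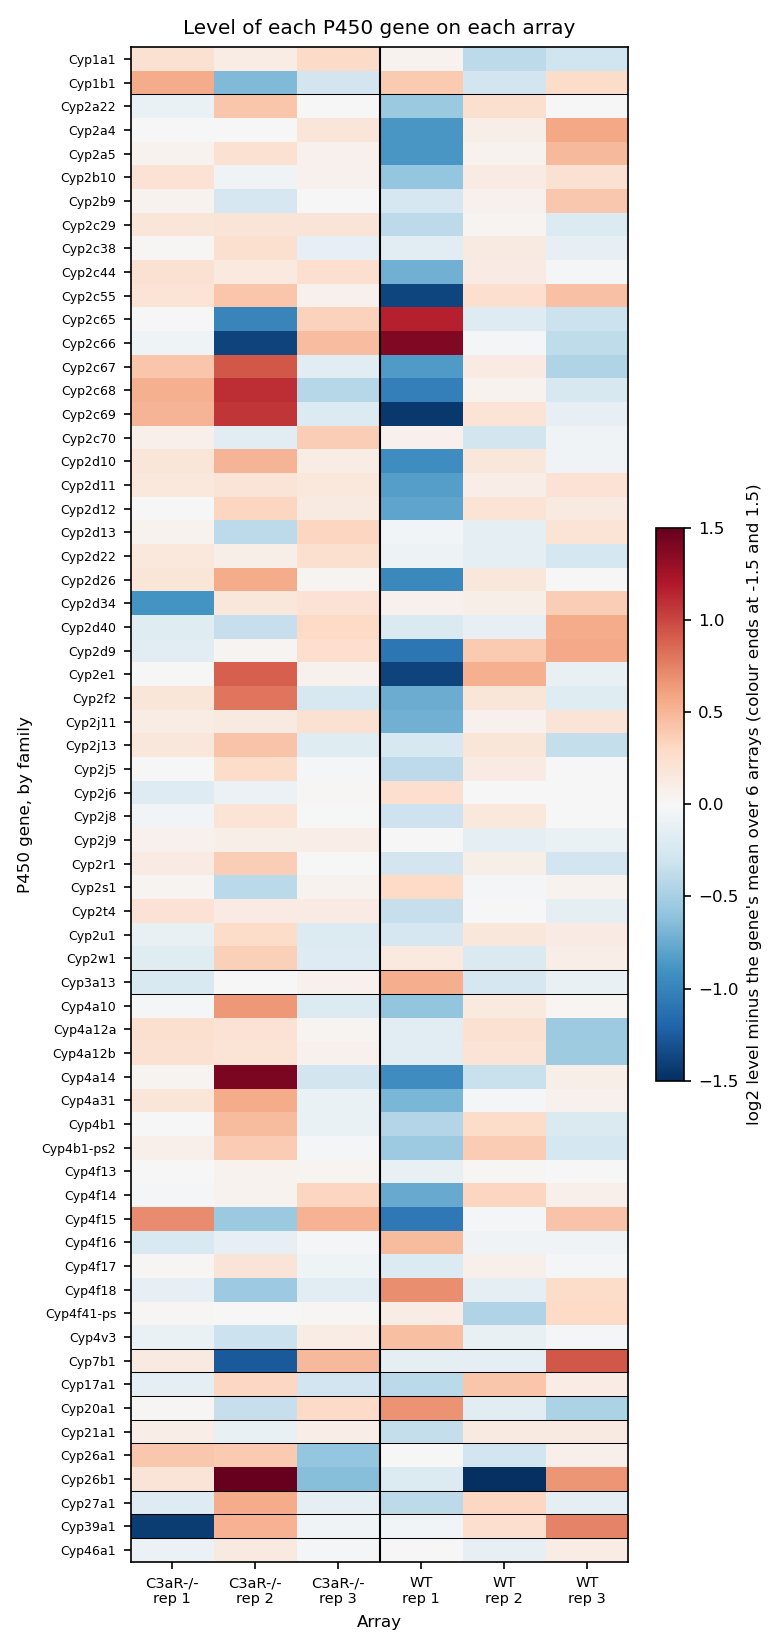
Level of each tested P450 gene (rows, by family) on each array (columns, C3aR-/- left of WT), as the log2 level minus the gene's mean over 6 arrays. WT replicate 1 is the bluest column, being the lowest array of 35 of 64 genes, while Cyp2c65 and Cyp2c66 are highest there.

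A single WT array recurs through these values. WT replicate 1 was the lowest array in 35 of 64 P450 genes (54.7%), where it was the lowest in 29.65% of all genes, and C3aR-/- replicate 2 was the highest in 26 P450 genes (40.6%), where it was the highest in 25.8% of all genes. After each gene was centred on its mean over the 6 arrays, the median P450 level was 0.04, 0.19 and 0.04 in C3aR-/- replicates 1 to 3, against -0.27, 0.07 and 0.01 in WT replicates 1 to 3. The median of 18 proximal tubule markers was 0.07, 0.62 and -0.08 in C3aR-/- arrays, against -0.86, 0.26 and 0.02 in WT arrays. The median of 6 injured tubule markers was -0.31, -0.78 and 0.13 in C3aR-/- arrays, against 1.28, -0.09 and 0.11 in WT arrays. WT replicate 1 was thus the lowest array for P450 genes and tubule markers and the highest for injury markers. WT replicate 1 was the highest array in 9 P450 genes (14.06%), where it was the highest in 28.04% of all genes. They were Cyp2c65, Cyp2c66, Cyp2j6, Cyp2s1, Cyp3a13, Cyp4f16, Cyp4f18, Cyp4v3 and Cyp20a1. The part of tubule content or injury in the P450 values was not tested.

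The markers themselves differed between the groups as follows. Of 18 proximal tubule markers 17 lay above 0, with a median difference of 0.39, and 0.09 without WT replicate 1. All 6 injured tubule markers lay below 0, with a median of -0.75, and -0.45 without WT replicate 1. Among these was Havcr1, the injury marker KIM-1, at -0.90 ± 0.81, and -0.12 without WT replicate 1. Of 7 macrophage markers 6 lay below 0, with a median of -0.60, and -0.38 without WT replicate 1. Itgam was the exception, at 0.24 ± 0.11 without overlap of its groups. All 6 T cell markers lay below 0, with a median of -1.22, and -1.19 without WT replicate 1. In T cell markers all arrays of a genotype stood on the same side, at -0.43, -1.01 and -0.31 in C3aR-/- arrays, against 0.63, 0.18 and 0.92 in WT arrays. The P450 medians did not have that order, as WT replicate 2 lay above C3aR-/- replicates 1 and 3. None of these markers passed adjustment over all genes.

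**Figure D5:**
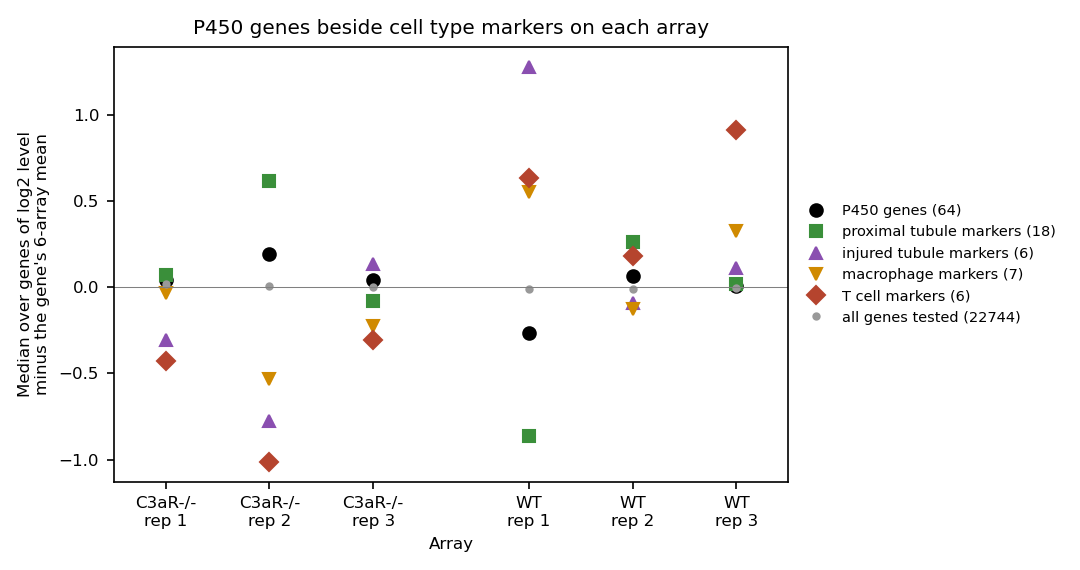
Median over the genes of a list of the log2 level minus the gene's 6-array mean (vertical axis), for each array (horizontal axis, C3aR-/- left of WT), with the number of genes in brackets. In WT replicate 1 the P450 genes sit at -0.27, the proximal tubule markers at -0.86 and the injured tubule markers at 1.28.

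Of 7 genes that pass electrons to P450s or, as Pgrmc1 does, bind them, 6 lay above 0, with a median difference of 0.18. The groups did not overlap in Pgrmc1 (0.11 ± 0.09) and in Cyb5r3, the exception (-0.06 ± 0.09). Por, the reductase that serves all microsomal P450s, differed by 0.18 ± 0.13, and Fdx1, the mitochondrial ferredoxin, by 0.18 ± 0.13. All 8 genes of heme synthesis lay above 0, with a median of 0.13, and Alas1, its rate-limiting enzyme, differed by 0.14 ± 0.12. Without WT replicate 1 these medians were 0.10 and 0.09, and Por and Fdx1 both differed by 0.11. Of 13 regulators 10 lay above 0, with a median of 0.14. Esrrg, an orphan nuclear receptor of mitochondrial metabolism, read 2.15, 2.21 and 2.18 in C3aR-/- arrays, against 1.99, 1.93 and 1.76 in WT arrays, a difference of 0.29 ± 0.10 without overlap (limma, unadjusted p = 0.0275, adjusted p = 0.931). Nr0b2, a repressor of other nuclear receptors, differed by 0.38 ± 0.24, Ppara by 0.36 ± 0.24, Hnf4a by 0.14 ± 0.19 and Nr1i3, the receptor CAR, by -0.36 ± 0.28. With normexp correction Nr0b2 and Nr1i3 were at 0.18 and -0.09, and without WT replicate 1 Ppara and Hnf4a were at 0.16 and -0.04.

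The targets of PPAR-alpha outside the P450s did not all share the direction of the CYP4A genes. Of 17 tested, 13 lay above 0, with a median difference of 0.12, and 0.01 without WT replicate 1. Angptl4, a lipase inhibitor, read 4.82, 5.10 and 5.14 in C3aR-/- arrays, against 5.76, 5.33 and 5.22 in WT arrays. Its groups did not overlap, and the difference was -0.42 ± 0.18, and -0.26 without WT replicate 1. Slc25a20, the mitochondrial carnitine carrier, differed by -0.76 ± 0.34 and the kinase Pdk4 by -0.53 ± 0.32 (-0.28 without WT replicate 1). Of 6 tested arachidonate enzymes outside the P450s 3 lay above 0, with a median of 0.001. Ephx2, which hydrolyses the epoxides that CYP2C and CYP2J enzymes make, differed by 0.35 ± 0.25 (0.10 without WT replicate 1), and Ephx1 by -0.12 ± 0.09 without overlap of its groups.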

How the data were processed

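The 6 Agilent arrays, each with 1 colour, lay on 1 slide and in 1 scan and read RNA of renal cortex. The headers of the array files give Agilent Feature Extraction 10.7.1.1. The deposited intensity values were the processed signal, background-subtracted and detrended per the file headers. The authors' deposited table of log2 values has columns with the same sorted values; no source used here names its tool. Scanner flags for background and outliers came from the same files.

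Control and outlier spots were left out, spots of a probe averaged, and values taken as log2 minus the array's 75th percentile. Probes well above background on at least 3 arrays were kept, with the brightest probe on average for each gene. P450 genes kept the files' names; other probes took RefSeq symbols by accession where they matched (32992 of 56599 probes). The test of each difference was limma 3.58.1 in R 4.3.3 (functions lmFit and eBayes), with Benjamini-Hochberg adjustment. It was also tried on data simulated from the fitted means and standard errors. The number of arrays limits the precision.

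Members, lists and alternatives were chosen with earlier results of these data known. Named genes were the family members with the highest mean, those with the smallest p or largest differences, those with known renal roles, and, in each list, those with the smallest p. Other genes were named after their values were seen, to show a subfamily or a pathway's main enzyme or receptor. The alternatives were other normalizations and background correction (normexp, offset 50), the authors' table, other filters, probe averaging or single probes, array weights, blocks and left-out arrays. The deviations of same-numbered arrays correlated at 0.125, 0.406 and -0.0931, not all above 0.1, so numbers were not treated as pairs.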

Additional observations from a re-analysis of the deposited data

How the results depend on the processing

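No gene of the array and no P450 gene had an adjusted p under 0.05 with limma under any setting tried that gives a test. The median difference of the P450 genes, 0.17, became 0.0133 with array weights, -0.0019 without both WT replicate 1 and C3aR-/- replicate 2 (the extremes of the first principal component, in opposite groups) and 0.32 within slide row 2; leaving out 1 array gave 0.03 to 0.26. The count of P450 genes at an unadjusted p under 0.05, 4, became 11 with the slide row as a block and 7 within slide row 1, and ran between 0 and 11 with 1 array left out. Over all genes that count, 1110, became 2115 with array weights, 1741 with the row block and 2026 without both of those arrays. With the replicate number as a block it was 6 P450 genes and 1596 genes, with 0 called. Quantile and median scaling, the authors' table and the dim-probe filters changed the sign of 0 P450 genes. Median scaling shifts all differences by the same small amount and the filters rarely change the probe read, so their 0 says little. Normexp and averaged probes changed the sign of 4 each, array weights of 21 and leaving out both of those arrays of 29. For 37 named P450 genes under 19 alternatives, 674 values stayed within 1 SD of the main value and 29 moved further. These counts do not measure stability. Both blocks are balanced between the groups and cannot move a difference, and the filters left those of the named genes unchanged. Among all 64 tested P450 genes, leaving out 1 array turned the sign of 27 at least once. The within-row values and the 1.5-fold counts under other settings were chosen after seeing the data. Which cause lies behind these shifts was not tested.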

Other observations

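Retinoid handling, outside the P450s that degrade retinoic acid, was split: of 12 tested genes 6 lay above 0, with a median difference of -0.02. Rara, a retinoic acid receptor, read 3.12, 2.98 and 3.05 in C3aR-/- arrays, against 2.88, 2.88 and 2.78 in WT arrays, a difference of 0.20 ± 0.09 without overlap. Aldh1a3, which makes retinoic acid, read -3.47, -3.68 and -2.90 in C3aR-/- arrays, against -3.69, -4.07 and -0.64 in WT arrays.

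Of 5 androgen-dependent genes of male kidney 4 lay above 0, with a median difference of 0.21, and 0.01 without WT replicate 1. Kap differed by 0.21 ± 0.18 (0.05 without WT replicate 1) and Odc1 by 0.11 ± 0.11. The P450 enzymes under other names were measured too. Cyp51, of cholesterol synthesis, differed by 0.10 ± 0.30 (-0.14 without WT replicate 1), the prostacyclin synthase gene Ptgis by 0.26 ± 0.19 and the thromboxane synthase gene Tbxas1 by 0.08 ± 0.13. All 6 tested adrenal markers lay above 0, with a median of 0.16, and Star, which feeds cholesterol to the first steroid enzyme, differed by 0.34 ± 0.16 (0.22 without WT replicate 1). Of the adrenal medulla markers, Th differed by 0.16 ± 0.09 without overlap, and Dbh and Pnmt were not tested. Of 5 liver markers 2 lay above 0, with a median of -0.10, and -0.20 without WT replicate 1. All 9 markers of distal tubule and collecting duct lay above 0, with a median of 0.11, as did 3 of 4 of thick ascending limb (0.07), 3 of 5 of podocytes (0.07), 5 of 6 of endothelium (0.17), 3 of 6 of fibroblasts and smooth muscle (0.02), 2 of 3 tested of fat (0.17) and 0 of 3 tested of B cells (-0.66). Without WT replicate 1 the medians of thick ascending limb, endothelium, and fibroblasts and smooth muscle were 0.04, 0.09 and 0.07. The fat median was -0.30 without WT replicate 1 and -0.08 with normexp correction, and the B cell median was -0.22 with normexp correction.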
